A study of Homo sapiens with 7 samples.

Results

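Histone genes were followed in PC3 TRIPZ-MITFA cells after induction of MITFA with doxycycline, by histone class and by the split between replication-dependent and variant genes. PC3 is a human cell line derived from a bone metastasis of prostate cancer, and the TRIPZ-MITFA line carries a lentiviral cassette from which doxycycline turns on HA-Flag-tagged MITFA, an isoform of the transcription factor MITF. A probe was taken as a histone probe where its gene symbol in the platform annotation is that of an H1, H2A, H2B, H3, H4 or macroH2A gene, under its older (HIST1H, HIST2H, HIST3H, HIST4H, H2AF, H3F, H1F) or current name. This gave 44 of the 19337 probes tested on Illumina HumanHT-12 v4 BeadChips. Of the 44, 43 carry 1 gene name and together read 37 genes, 1 of them the pseudogene H2BW4P. The other probe is annotated to both H3C11 and H3C6 and is labelled as several H3 genes in the figures. RefSeq (GRCh38.p14) lists 94 protein-coding histone genes under these names, and 36 of them had a tested and singly named probe. The annotation used here names tested probes only, so histone probes below the detection limit were not analysed here. It leaves 4275 of the 19337 tested probes without a gene name, and any histone probes among these were missed as well.

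The Dox group held 4 arrays (replicates 1 to 4) of the induced cells, and the No dox group held 3 arrays (replicates 2, 3 and 4) of the same line, which carries the cassette as well, without the drug. Every cell line sample carried the cassette, so an effect of the drug itself and an effect of MITFA cannot be told apart. The sources do not say whether each array had its own culture, and the p-values cover only array-to-array spread, which may be technical. The single tested MITF probe averaged 6.76 ± 0.12 (SD, n = 4) in Dox and 6.82 ± 0.11 (SD, n = 3) in No dox on the log2 scale (adjusted p = 0.90 from limma), and the sources do not say whether it can read the transcript of the cassette. Between 15562 and 16618 probes were above background on an array (detection p-value under 0.01), and the arrays correlated at 0.9938 to 0.9956. Of 6 epithelial markers 4 were tested. KRT8, KRT19 and EPCAM were above background on all 7 arrays, and CDH1 on 6. No probe of 5 markers of luminal prostate cells and androgen response was among those tested. The fibroblast, leukocyte and endothelial lists had 2 of 5, 1 of 4 and 1 of 3 genes tested, and of these only PECAM1 was above background on all 7 arrays. CD14 was above background on 6 arrays, COL1A2 on 5 and COL1A1 on 1.

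Histones are the proteins around which DNA is wound. The core histones H2A, H2B, H3 and H4 form the nucleosome, and H1 binds the DNA that links nucleosomes. Replication-dependent histone genes lie in clusters, have no introns and are transcribed mainly in S phase to package newly copied DNA, and most of their mRNA ends in a stem-loop in place of a poly(A) tail. Most variant histones are encoded by single genes outside the clusters, whose polyadenylated mRNA is made through the cell cycle, and they replace the common forms at particular places in the genome. The labelling kit copies RNA from its poly(A) tail, so for the replication-dependent genes the arrays read the transcripts that carry one. Whether the polyadenylated share differed between the groups was not tested.

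Upon MITFA induction, replication-dependent histone transcripts of the H2A and H2B classes lay mostly above their No dox level. Counted by probe, the variant type and the H3 class were centred slightly below that level. The 15 variant probes read 11 genes, and the 6 variant probes above 0 each read a different gene. The 9 below 0 include several probes each of MACROH2A1 and H3-3A, so the variant centre is one of probes and not of genes. Only H2AC19 (HIST2H2AA4), which encodes a replication-dependent H2A, and H2BC21 (HIST2H2BE), which encodes a replication-dependent H2B, passed the adjusted threshold, with increases of 1.44-fold and 1.42-fold. Over all 44 probes the median log2 fold change of Dox over No dox was 0.067, with 27 probes above 0, against a median of -0.0009 over all 19337 tested probes. At an adjusted p under 0.05 from limma 2 histone probes were higher and 0 were lower, where 0.134% of all tested probes were called, all 26 of them higher. At an unadjusted p under 0.05, 12 histone probes were higher and 4 were lower, where 4.49% and 4% of all tested probes were. In 11 histone probes every Dox array lay above every No dox array, which 5.07% of all tested probes showed, and in 5 every Dox array lay below, which 4.24% showed. These counts and medians take in the fitted values of 9 probes for which one group was at background on all its arrays. Over the other 35 probes 21 lay above 0, with a median of 0.053. Of these 35, 10 were higher and 4 lower at an unadjusted p under 0.05 from limma. The groups did not overlap upward in 10 and downward in 5 of them. On the log2 values deposited by the authors, which match quantile-normalized signal with no background correction added, the same fit called 6 histone probes higher and 2 lower, where 0.393% and 0.129% of all tested probes were called.

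**Figure D1:**
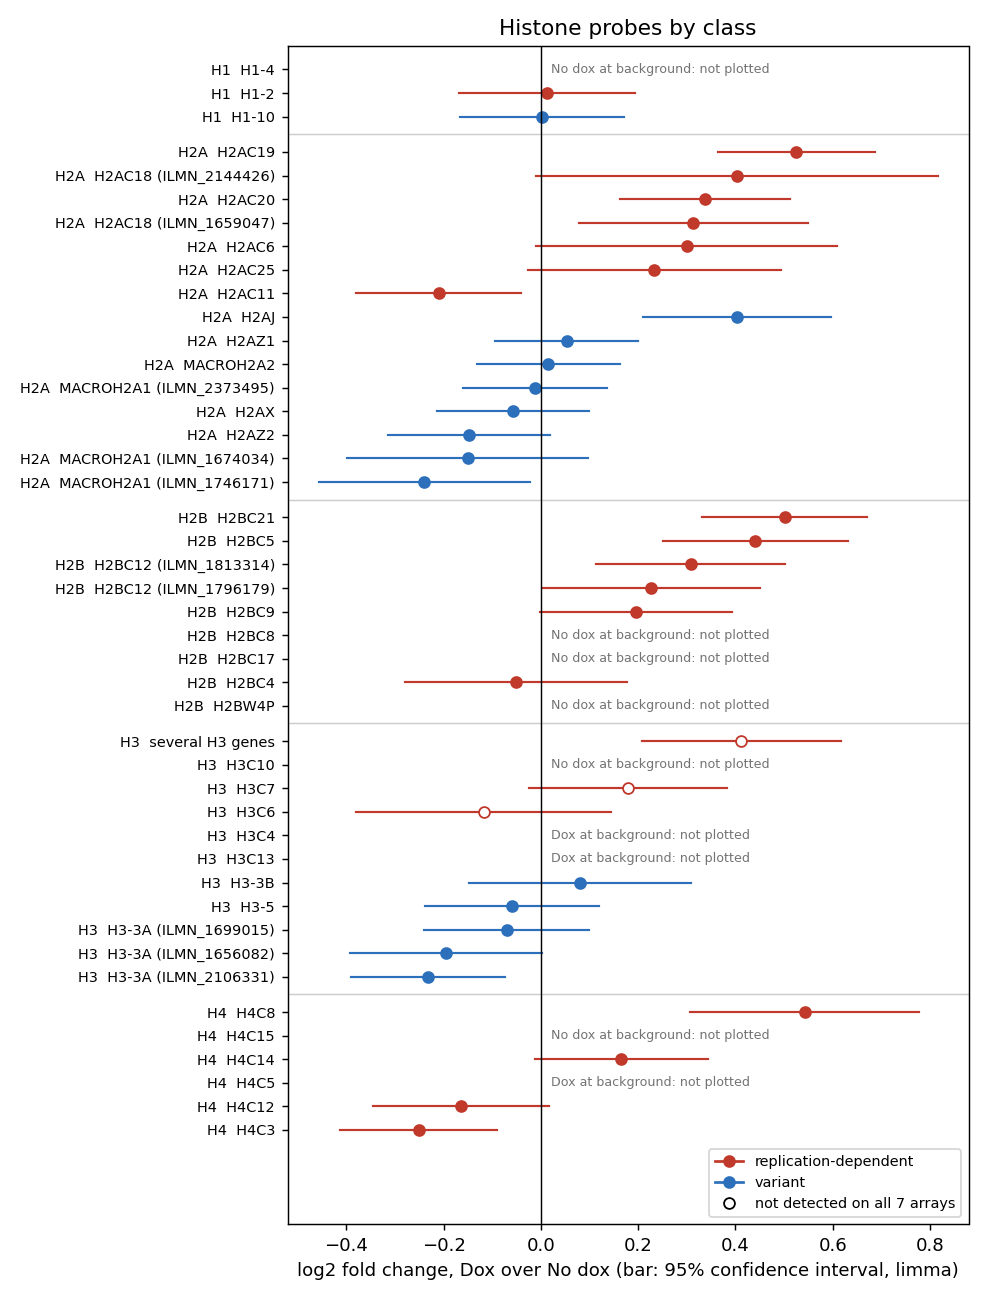
Log2 fold change of Dox over No dox for 35 histone probes, in rows by class, with 95% confidence intervals from limma as bars (4 Dox and 3 No dox arrays); the rows of 9 further probes, for which one group was at background on all its arrays, carry no point. Red stands for replication-dependent and blue for variant genes, and open points mark the 3 plotted probes not detected on all 7 arrays, while H2AC19 (0.53) and H2BC21 (0.50) passed the adjusted threshold and H4C3 (-0.25) was the lowest.

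H2AC19 had a log2 signal of 7.49, 7.54, 7.46 and 7.62 on Dox arrays 1 to 4, against 6.94, 7.04 and 7.03 on No dox arrays 2 to 4. The groups did not overlap, and the gap between them was wider than the spread within either. The log2 fold change was 0.53 (SE 0.072, adjusted p = 0.032 from limma). An exact two-sided permutation test of its array values gave an unadjusted p = 0.0286, the smallest that the 35 splits of 7 arrays allow. H2AJ, H4C3 and further probes that were not called reached the same value. On the log2 values that the authors deposited the log2 fold change of H2AC19 was 0.37 (adjusted p = 0.00041 from limma). The call did not hold when any single array was left out, whichever it was, with log2 fold changes of 0.49 to 0.55 and adjusted p of 0.064 to 0.16, and it missed the threshold with median scaling (adjusted p = 0.054). H2AC19 lies at chr1:149851061-149851594 in the HIST2 cluster beside H2AC18 (HIST2H2AA3), a near-identical copy at chr1:149842218-149842750. The RefSeq promoter windows of H2AC18 and H2AC19 had the same base at 299 of 299 positions compared. Probe sequences were not used here, so signal that the copies share cannot be assigned to either gene.

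Both probes of H2AC18 lay above 0 without passing the adjusted threshold. At probe ILMN_1659047 the log2 signal was 4.91, 5.09, 5.18 and 5.38 in Dox, against 4.76, 4.85 and 4.87 in No dox, with no overlap (log2 fold change 0.31, adjusted p = 0.48 from limma). At probe ILMN_2144426 it was 7.29, 6.96, 6.75 and 7.20 in Dox, against 6.49, 6.34 and 7.11 in No dox (0.40, adjusted p = 0.60). Here No dox replicate 4 stood inside the Dox range and the groups overlapped.

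H2BC21 had a log2 signal of 7.20, 7.18, 6.98 and 7.11 in Dox, against 6.59, 6.62 and 6.64 in No dox. All Dox arrays were higher, with Dox replicate 3 the nearest to No dox. The log2 fold change was 0.50 (SE 0.076, adjusted p = 0.048 from limma), and 0.32 on the authors' values (adjusted p = 0.0022 from limma). The call held without Dox replicate 3 (adjusted p = 0.045) and was lost without each other array (adjusted p of 0.17 to 0.23), with no filter (0.050), array weights (0.052) or median scaling (0.13). Its neighbour H2AC20 (HIST2H2AC), an H2A gene that starts 235 bases away and runs in the opposite direction, had 7.78, 7.75, 7.73 and 7.89 in Dox, against 7.33, 7.48 and 7.53 in No dox. These groups did not overlap either, and the log2 fold change was 0.34 (adjusted p = 0.28 from limma), against 0.25 on the authors' values (adjusted p = 0.024 from limma). H2A and H2B genes often share one promoter region in this way, and the measured genes held another such pair with under 300 bases between the starts. In that pair, with 245 bases between the starts, H2AC6 (HIST1H2AC) had a log2 fold change of 0.30 (adjusted p = 0.60) and H2BC4 (HIST1H2BC) one of -0.05 (adjusted p = 0.92).

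The region between the starts of H2BC21 and H2AC20 is shown because it serves both genes, and the 150 bases before the starts of H2AC19, H2BC5, H4C8, H2AJ and H2BC12 as examples of genes with a probe whose Dox arrays all lay above the No dox arrays. H2AC11 is shown as a replication-dependent H2A gene whose Dox arrays lay below the No dox arrays. The sequences are from RefSeq (GRCh38.p14), and 34 of the 37 histone genes had a promoter window (250 bases before to 50 after the start). Capitals mark every match, on either strand, to CACGTG or CATGTG, the E-boxes of the kind that MITF binds, to the octamer ATTTGCAT, to the CCAAT box (spelled CCAAT), to the TATA box in its form TATAAA, and to GGTCC, which is found in H4 promoters.
H2BC21-H2AC20: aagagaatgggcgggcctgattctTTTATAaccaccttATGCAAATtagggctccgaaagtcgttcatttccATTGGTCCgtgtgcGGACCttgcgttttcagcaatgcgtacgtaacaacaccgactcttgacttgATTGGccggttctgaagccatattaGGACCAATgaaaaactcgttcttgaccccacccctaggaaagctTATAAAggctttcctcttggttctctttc
H2AC19: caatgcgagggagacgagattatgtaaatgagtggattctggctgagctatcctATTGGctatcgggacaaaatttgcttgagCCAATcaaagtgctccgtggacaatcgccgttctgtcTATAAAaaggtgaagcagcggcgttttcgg
H2BC5: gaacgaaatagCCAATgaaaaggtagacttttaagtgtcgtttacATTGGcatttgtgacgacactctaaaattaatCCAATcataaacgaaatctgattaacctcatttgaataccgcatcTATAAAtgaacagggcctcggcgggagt
H4C8: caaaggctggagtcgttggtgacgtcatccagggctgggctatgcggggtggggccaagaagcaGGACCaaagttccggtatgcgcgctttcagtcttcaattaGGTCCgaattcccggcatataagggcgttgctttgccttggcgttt
H2AJ: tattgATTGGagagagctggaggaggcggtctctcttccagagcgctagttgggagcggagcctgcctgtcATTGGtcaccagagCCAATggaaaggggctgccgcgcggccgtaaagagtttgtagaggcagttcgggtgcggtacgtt
H2BC12: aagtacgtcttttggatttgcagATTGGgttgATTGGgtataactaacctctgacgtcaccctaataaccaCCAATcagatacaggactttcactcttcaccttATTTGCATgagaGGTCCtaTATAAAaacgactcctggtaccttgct
H2AC11: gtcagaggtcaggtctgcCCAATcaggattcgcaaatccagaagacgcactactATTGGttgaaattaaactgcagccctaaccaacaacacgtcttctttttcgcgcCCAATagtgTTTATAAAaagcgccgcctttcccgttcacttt
The first runs on the plus strand of chr1:149886683-149886917, from the start of H2BC21, which lies on the minus strand, to that of H2AC20. The others run in the direction of transcription and lie at chr1:149850911-149851060 (plus) for H2AC19, chr6:26157971-26158120 (plus) for H2BC5, chr6:26285535-26285684 (minus) for H4C8, chr12:14774255-14774404 (plus) for H2AJ, chr6:27146859-27147008 (minus) for H2BC12 and chr6:27132893-27133042 (plus) for H2AC11. Different motifs overlapped only between H2BC21 and H2AC20, in 2 places where CCAAT and GGTCC share bases. CACGTG was in 0 and CATGTG in 0 of the 34 histone windows, against 8.77% and 13.4% of the windows of all 27305 genes in the table. The octamer was in 10 of 25 windows of replication-dependent genes (40.0%), with 6 of 7 H2B and 3 of 6 H2A genes among them, and in 2.19% of all windows. CCAAT was in all 6 replication-dependent H2A and all 7 H2B windows (39.7% of all windows), TATAAA in 5 of 6 and 6 of 7 (14%), and GGTCC in all 5 H4 windows (50.6%). The stretches printed for H2AC11, with a log2 fold change of -0.21, and for H2AC19, with 0.53, both hold CCAAT and TATAAA. A match says only that the letters occur in the window.

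Among the other replication-dependent genes of H2B, the core histone that pairs with H2A, H2BC5 (HIST1H2BD) had a log2 signal of 6.48, 6.44, 6.71 and 6.55 in Dox, against 6.04, 6.08 and 6.20 in No dox. The groups did not overlap (log2 fold change 0.44, SE 0.086, adjusted p = 0.19 from limma), and on the authors' values the difference passed (0.24, adjusted p = 0.031 from limma). H2BC12 (HIST1H2BK) was read by 2 probes. Probe ILMN_1813314 had 7.43, 7.55, 7.53 and 7.50 in Dox, against 7.02, 7.23 and 7.34 in No dox, again with no overlap (0.31, adjusted p = 0.38). At the other, ILMN_1796179, the groups overlapped (0.23, adjusted p = 0.59). H2BC9 (HIST1H2BH) had 5.10, 5.08, 4.83 and 4.86 in Dox, against 4.73, 4.81 and 4.77 in No dox, a narrow separation (0.20, adjusted p = 0.59). H2BC8 and H2BC17 were above background on 2 and 1 of 4 Dox arrays and on 0 of 3 No dox arrays, so no fold is given for them. Of the 9 H2B probes, H2BC4 alone lay below 0 in this fit, and the median of the class was 0.20.

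In the H4 class, whose many gene copies encode one protein, the largest differences ran in opposite directions. H4C8 (HIST1H4H) had the largest log2 fold change of the 44 probes, 0.54 (SE 0.11, adjusted p = 0.19 from limma), with a log2 signal of 7.49, 7.43, 7.48 and 7.50 in Dox, against 6.78, 6.81 and 7.21 in No dox. No dox replicate 4 stood apart from the other No dox arrays and still lay below every Dox array. Without it the log2 fold change was 0.68 (adjusted p = 0.019 from limma), and on the authors' values with all arrays 0.37 (adjusted p = 0.0039 from limma). H4C3 (HIST1H4C) had 12.41, 12.38, 12.29 and 12.40 in Dox, against 12.71, 12.56 and 12.60 in No dox. Every Dox array was lower, and the log2 fold change was -0.25 (SE 0.072, adjusted p = 0.38 from limma) and -0.25 on the authors' values (adjusted p = 0.028 from limma). H4C12 (HIST1H4K, -0.16) and H4C14 (HIST2H4A, 0.17) had overlapping groups (adjusted p = 0.63 and 0.62). H4C15 (HIST2H4B) has a promoter window identical to that of H4C14 at 300 of 300 bases. Its probe was above background on 2 of 4 Dox arrays and on no No dox array. It had 4.89, 4.70, 4.71 and 4.96 in Dox, against 4.56, 4.70 and 4.56 in No dox. An approximate lower bound on the ratio of the group means was 1.07-fold, with no allowance for the spread between arrays (log2 interval 0.015 to 0.40, adjusted p = 0.57 from limma). That bound sets the Dox mean against the lowest signal above background on each No dox array, or the probe's own where higher. The Dox mean takes in arrays not above background, so the bound is not strict. H4C5 was above background on no Dox array and 1 No dox array. The class median was 0.014, with 3 probes above 0 and 3 below, and it lay between -0.013 and 0.16 with 1 array left out, the highest without No dox replicate 3.

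**Figure D2:**
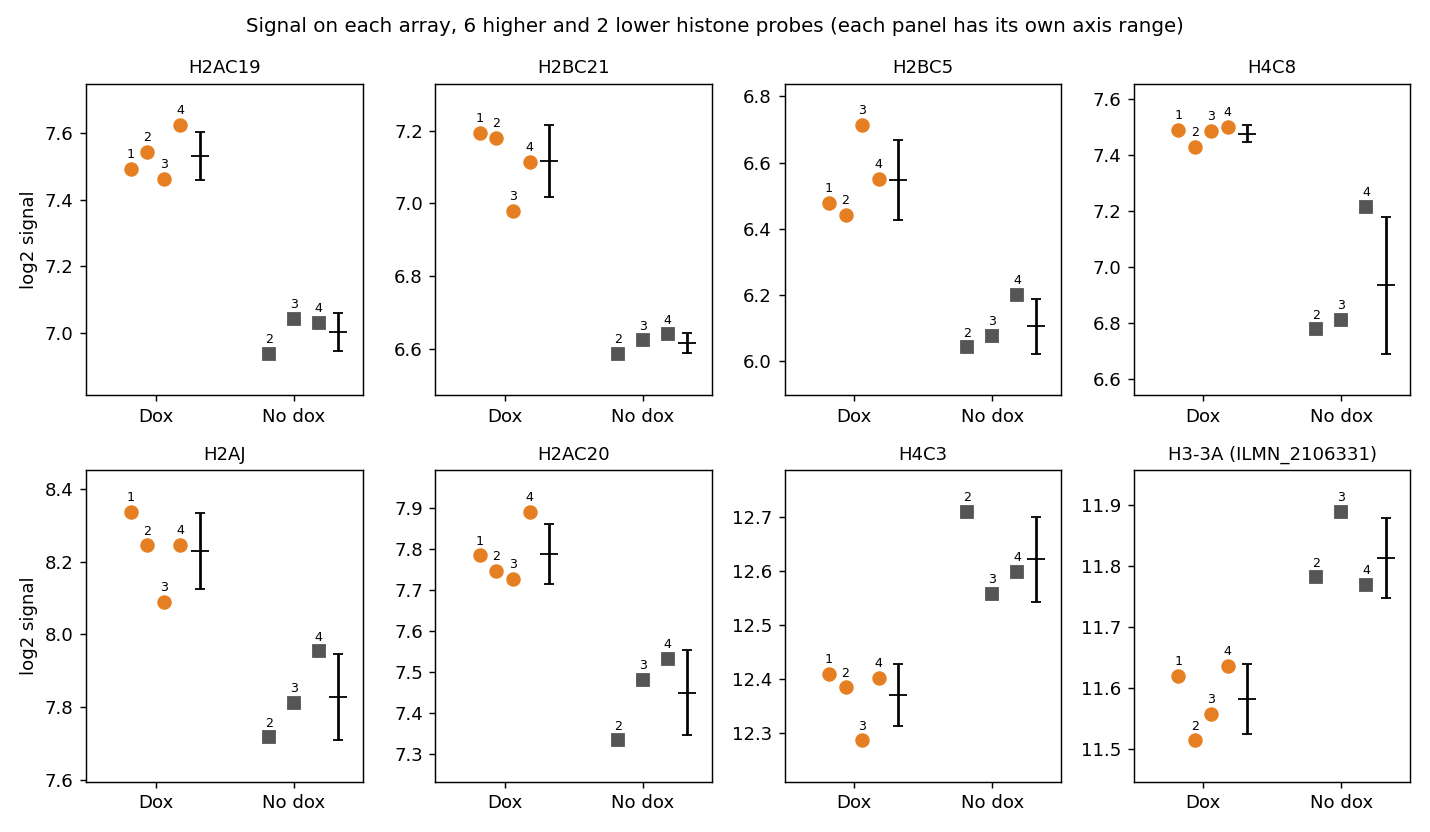
Log2 signal on each array for 6 histone probes higher and 2 lower in Dox (circles, Dox replicates 1 to 4; squares, No dox replicates 2 to 4; the bar is the mean with its SD). In each panel the groups do not overlap. The widest No dox spread is that of H4C8, where replicate 4 lies at 7.21 and the other two at 6.78 and 6.81.

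In the remaining replication-dependent H2A genes, H2AC6 had 5.79, 5.92, 5.89 and 5.89 in Dox, against 5.39, 5.35 and 5.98 in No dox. No dox replicate 4 was above every Dox array here, while the other No dox arrays were below them. H2AC25 (HIST3H2A), the only measured gene of the HIST3 cluster, had a log2 fold change of 0.23 with overlapping groups (adjusted p = 0.63). H2AC11 (HIST1H2AG) was the only replication-dependent H2A probe below 0, with 5.01, 4.82, 4.93 and 4.86 in Dox, against 5.18, 5.12 and 5.04 in No dox. Its groups did not overlap (-0.21, adjusted p = 0.52 from limma), and on the authors' values the difference was -0.07. The 7 replication-dependent H2A probes had a median of 0.31.

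H3 was the class with the lowest median, -0.070 over 11 probes. By type, the median was -0.070 over its 5 variant probes and 0.031 over its 6 replication-dependent probes. The replication-dependent members were dim. None of these 6 probes was above background on all 7 arrays. The probe annotated to both H3C11 and H3C6 was above background on 4 of 4 Dox and 2 of 3 No dox arrays. It had 5.18, 4.90, 5.11 and 5.13 in Dox, against 4.73, 4.53 and 4.74 in No dox. The groups did not overlap (0.41, adjusted p = 0.25 from limma), and on the authors' values the difference was 0.13 (adjusted p = 0.34). H3C7 (0.18) and the singly named probe of H3C6 (-0.12) had overlapping groups. The probe that H3C6 shares with H3C11 and its own probe thus differed in sign. H3C10 was above background on 2 Dox arrays and no No dox array, and H3C4 and H3C13 on no Dox array and 1 No dox array, so no fold is given.

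The H3.3 genes H3-3A and H3-3B encode one and the same variant protein, which is laid down independently of DNA replication. H3-3A (H3F3A) had, at probe ILMN_2106331, 11.62, 11.51, 11.56 and 11.64 in Dox, against 11.78, 11.89 and 11.77 in No dox. The groups did not overlap (-0.23, SE 0.071, adjusted p = 0.42 from limma), and on the authors' values the difference passed (-0.23, adjusted p = 0.043 from limma). The second H3-3A probe, ILMN_1656082, also had all Dox arrays below the No dox arrays (-0.19, adjusted p = 0.59), while the third, ILMN_1699015, overlapped (-0.07, adjusted p = 0.84). H3-3B had 8.16, 8.38, 8.01 and 8.22 in Dox, against 8.13, 8.24 and 7.96 in No dox (0.08, adjusted p = 0.87). The difference between the changes of the 2 genes was not tested. H3-5 (H3F3C), a further gene of the H3.3 kind, had overlapping groups (-0.06, adjusted p = 0.88), and CENPA, the H3 variant of centromeres, had a log2 fold change of -0.01 (adjusted p = 0.98).

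Of the 15 variant probes, H2AJ (H2AFJ) alone separated upward. H2A.J, the protein of this gene, is an H2A variant of mammals that accumulates in senescent cells. Its log2 signal was 8.34, 8.24, 8.09 and 8.25 in Dox, against 7.72, 7.81 and 7.95 in No dox. All Dox arrays were higher, with Dox replicate 3 and No dox replicate 4 the closest. The log2 fold change was 0.40 (SE 0.087, adjusted p = 0.24 from limma), and on the authors' values it was 0.32 and passed (adjusted p = 0.0088 from limma).

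MACROH2A1 (H2AFY), whose protein carries a large extra domain and is found at silent chromatin such as the inactive X chromosome, was read by 3 probes. Probe ILMN_1746171 had 8.58, 8.36, 8.16 and 8.44 in Dox, against 8.62, 8.59 and 8.66 in No dox. The groups did not overlap by a narrow margin, with Dox replicate 1 beside the No dox arrays (-0.24, adjusted p = 0.56 from limma). Probe ILMN_1674034 overlapped (-0.15, adjusted p = 0.75), and at ILMN_2373495 the difference was -0.01 (95% interval -0.16 to 0.14). MACROH2A2 had 0.02 (interval -0.13 to 0.16). H2AZ1, of the variant H2A.Z that marks active promoters, had 0.05 (interval -0.09 to 0.20), and H2AZ2, its second gene, -0.15 (interval -0.31 to 0.02). H2AX, whose protein is phosphorylated at DNA breaks, had -0.06 (interval -0.21 to 0.10). The intervals of H2AZ1, H2AZ2, H2AX, MACROH2A2 and the MACROH2A1 probe ILMN_2373495 exclude a change as large as that of H2AC19. The interval of H2AC20, 0.16 to 0.51, does so too although its groups did not overlap. This measure therefore does not mark a probe as unchanged.

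The H1 class had 3 probes. H1-2 (HIST1H1C), a linker histone of the HIST1 cluster, had 8.18, 8.21, 8.07 and 8.24 in Dox, against 8.10, 8.09 and 8.30 in No dox (0.01, interval -0.17 to 0.19). H1-10 (H1FX), a variant linker histone outside the clusters, had 6.67, 6.48, 6.58 and 6.66 in Dox, against 6.58, 6.66 and 6.54 in No dox (0.00, interval -0.17 to 0.17). Both had overlapping groups, and both intervals exclude a change as large as that of H2AC19, as does that of H2AC20. H1-4 and the H2B pseudogene H2BW4P were above background on 1 Dox array each and on no No dox array.

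**Figure D3:**
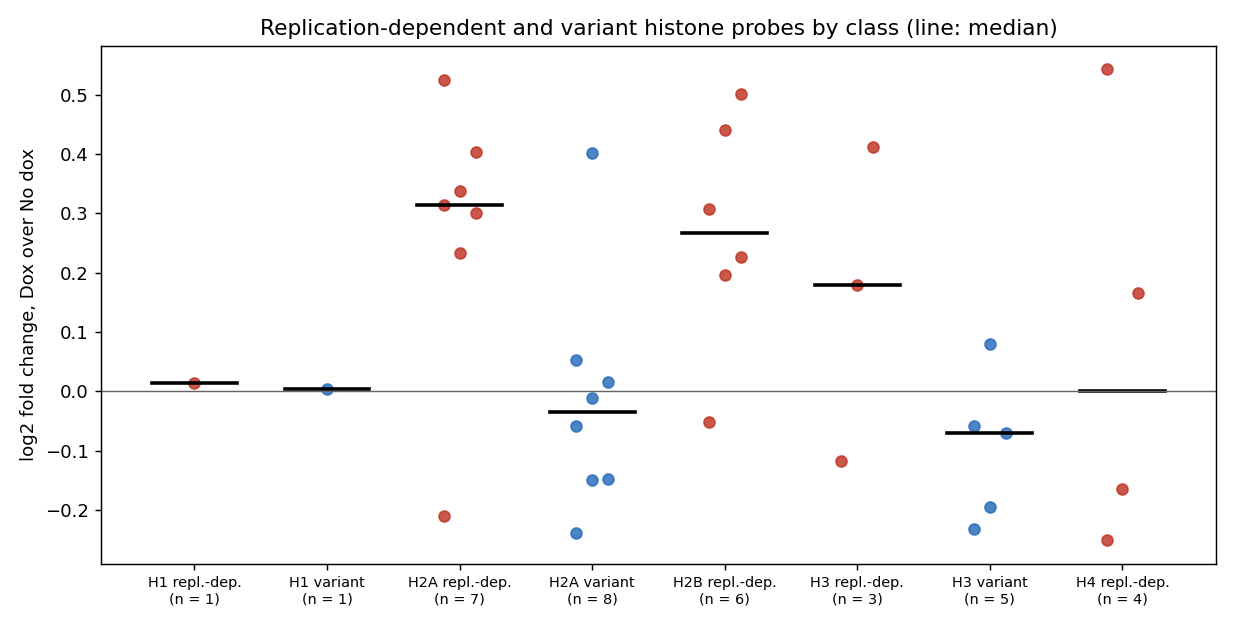
Log2 fold change of Dox over No dox (vertical axis) for the 35 histone probes with neither group wholly at background, by class, each split into replication-dependent (red) and variant (blue) genes, 1 point per probe, with the median as a line. The medians were 0.31 for replication-dependent and -0.03 for variant H2A, 0.27 for replication-dependent H2B, 0.18 and -0.07 for replication-dependent and variant H3, and 0.0006 for H4.

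By type, 21 of 29 replication-dependent probes lay above 0, with a median log2 fold change of 0.20, and 6 of 15 variant probes did, with a median of -0.06. The groups did not overlap upward in 10 and downward in 2 replication-dependent probes, and upward in 1 and downward in 3 variant probes, set against 5.07% and 4.24% of all tested probes. Without the 9 probes at background in a whole group, 16 of 21 replication-dependent probes lay above 0 (median 0.23) and 5 of 14 variant probes did (median -0.06). The groups then did not overlap upward in 9 and downward in 2 replication-dependent probes, and upward in 1 and downward in 3 variant probes. Among probes above background on all 7 arrays, the medians were 0.27 over 18 replication-dependent and -0.06 over 14 variant probes, against -0.0007 over all 14090 such probes. The size of the replication-dependent median hung on the background correction, since it was 0.079 on the authors' values. The variant median was below 0 in every alternative run for it, but 1 probe per gene was not run for the types. Without No dox replicate 3 the variant median was -0.0034, and with 1 array left out the replication-dependent median lay between 0.18 and 0.24. No test of the difference between the types was made, since the members of a class share arrays and some share sequence.

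By genomic position, a grouping chosen after the values were seen, 7 of 8 probes of the HIST2 cluster (7 genes between chr1:149813225-149887411) lay above 0, with a median of 0.33. The exception was H3C13, which was at background on all Dox arrays. Of 20 probes of the HIST1 cluster on chromosome 6, 13 lay above 0, with a median of 0.18. The 15 probes outside the clusters are the variant probes described above.

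The higher level was shared by the Dox arrays to unequal degree. Measured from the No dox mean of each probe, the median deviation over the 29 replication-dependent probes was 0.22, 0.15, 0.064 and 0.26 on Dox arrays 1 to 4, against -0.042, -0.030 and 0.072 on No dox arrays 2 to 4. Dox replicate 3 was thus below No dox replicate 4 by this measure. Over the 8 HIST2 probes the deviations were 0.31, 0.28, 0.19 and 0.47 in Dox, against -0.0685, 0.015 and 0.064 in No dox. These do not overlap, but the HIST2 grouping was chosen after the values were seen and holds both called probes, so this is no test. It also holds the near-identical copies H2AC18 and H2AC19, and H4C15 and H3C13, each at background in a whole group. Over the 15 variant probes they were -0.013, -0.073, -0.057 and -0.054 in Dox, against -0.0022, 0.032 and -0.038 in No dox. No dox replicate 4 was the highest No dox array in 17 of the 27 histone probes above 0 (63.0%), against 36.3% of all tested probes above 0. The cause was not tested.

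**Figure D4:**
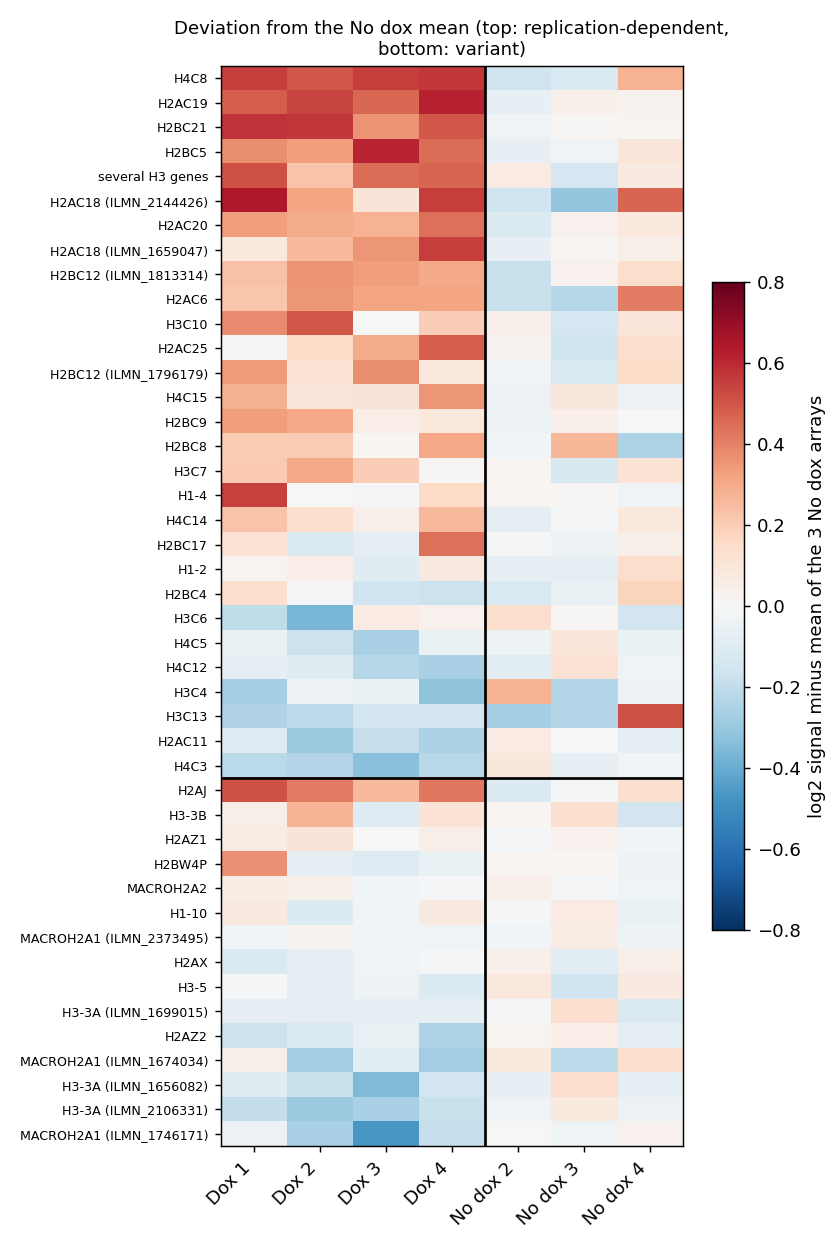
Deviation of each array from the mean of the 3 No dox arrays, in log2 signal, for 44 histone probes (rows, replication-dependent above and variant below the line, sorted by fold change) on 4 Dox and 3 No dox arrays (columns). Red is higher and blue lower. No dox replicate 4 is red for H4C8, H2AC6, H3C13 and the H2AC18 probe ILMN_2144426.

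Genes that make and handle histones were centred near 0. Of 12 tested genes (of 15 listed) for histone transcription and pre-mRNA processing, 6 lay above 0 with a median of -0.0073, and 0 passed the adjusted threshold from limma (2 were lower and 0 higher at an unadjusted p under 0.05). NPAT, the coactivator of replication-dependent histone transcription that cyclin E and CDK2 activate, had the smallest p, with a log2 signal of 4.59 ± 0.10 (SD, n = 4) in Dox and 5.02 ± 0.14 (SD, n = 3) in No dox. It was above background on 4 of 7 arrays, and its log2 fold change of -0.42 did not pass (unadjusted p = 0.00074, adjusted p = 0.23 from limma). SLBP, which binds the stem-loop of histone mRNA, had -0.02 (adjusted p = 0.98), and ERI1, an exonuclease that acts on that stem-loop, -0.21 (adjusted p = 0.52). Of 23 tested histone chaperone and import genes (of 25), 6 lay above 0, with a median of -0.028 and 0 called (0 at an unadjusted p under 0.05). CHAF1A and ASF1B, chaperones that hand new H3 and H4 to replicating DNA, had 0.12 and -0.12 (adjusted p = 0.73 for each).

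Genes of S phase, when replication-dependent histones are made, were centred near 0 as well. Of 25 tested S phase genes (of 28), 12 lay above 0, with a median of -0.015, and 0 were called (1 at an unadjusted p under 0.05, CDC6, which loads the replicative helicase, 0.19, adjusted p = 0.51). PCNA, the sliding clamp of DNA replication, had 0.04 (adjusted p = 0.94), and MCM2, a subunit of the helicase, 0.01 (adjusted p = 0.99).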

How the data were processed

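RNA from the 7 arrays had been labelled as biotin-aRNA and hybridised to Illumina HumanHT-12 v4 BeadChips. The authors deposited GenomeStudio output for 47323 probes, with the intensity and its detection p-value on each array, and a table of log2 values for 19337 probes. The authors' methods describe background correction, log2 transformation and quantile normalization with lumi, and their deposited log2 values stayed within 0.0462 of what log2 and quantile normalization of the intensity alone gives. The column of No dox replicate 2 in these log2 values had a median of 7.16.

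The deposited intensity values were processed with neqc in limma (version 3.58.1, R 4.3.3), which models background on controls that it infers here through the detection p-values, adds an offset (16) and applies quantile normalization and log2. This step widens fold changes mostly for dim probes. Probes detected (p-value under 0.01) on 1 or more arrays, 19337 in all, were fitted together with limma (2 group means, empirical Bayes), and p-values were adjusted by Benjamini-Hochberg over all of them. Gene names come from the platform annotation (15060 probes with 1 name, 4275 with none), and positions, older symbols and promoter windows from RefSeq (GRCh38.p14). H1-1 to H1-5 and all genes of the H2AC, H2BC, H3C and H4C series were taken as replication-dependent, and all other members as variants. With H2AX placed among the replication-dependent genes in an alternative, the median was 0.189 for that type and -0.035 for the variants.

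The members, gene lists and motifs were chosen with earlier results of these data known. Named were the probes past the adjusted threshold, the 10 of smallest p in each direction, every H1, H3 and variant probe, and up to 4 genes of smallest p in a list beside SLBP, CHAF1A, ASF1B, PCNA, MCM2 and the markers named, which were chosen by role. For the 9 probes at background on all arrays of a group, no fold is given beyond a bound for 1 of them. Their fitted values enter the counts and medians, which are also given without them, an alternative chosen after seeing the data. The number of arrays limits the precision. The alternatives were the background correction, normalization, filter, authors' values, intensity trend, array weights, replicate block, each array left out, the class assignment and 1 probe per gene. The last was run for all histone probes and for the classes, and not for the types.

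Replicate numbers 2, 3 and 4 occur in both groups, and the deviations of same-numbered arrays correlated at -0.035, 0.009 and -0.021, so the numbers were not taken to pair the arrays.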

Additional observations from a re-analysis of the deposited data

Results flagged for a closer look

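The probe of the pseudogene H2BW4P had 1 Dox array apart from the others. Dox replicate 1 lay at a log2 signal of 4.69, against 4.25, 4.22 and 4.27 on Dox replicates 2, 3 and 4, and the gap to the nearest of them was 0.893 of the range of the group. It was the only Dox array on which this probe was above background. Each of the 44 histone probes was checked in this way over the 4 Dox arrays, and chance marks about 1 in 20 groups.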

How the results depend on the processing

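The medians of the replication-dependent and H2B probes were above 0, and those of the variant and H3 probes below 0, in every alternative run for them. The types were not run with 1 probe per gene, so several probes of MACROH2A1 and H3-3A enter the variant median throughout. Counts of calls depended on the processing. Instead of 2 histone probes (2 higher, 0 lower), 8 (6 higher, 2 lower) passed with no background correction, on the authors' log2 values and with an intensity trend, where 0.393%, 0.393% and 0.481% of all tested probes were higher and 0.129%, 0.129% and 0.202% lower. In all 3 these were H2AC19, H2BC21, H2BC5, H4C8, H2AJ and H2AC20, higher, and H4C3 and H3-3A (ILMN_2106331), lower. With array weights 1 passed (1 higher), with no filter 1 (1 higher), and with median scaling 0 (0 higher). With each array left out, 0 to 1 passed, all higher (0 to 1). The H2B median was 0.0714 and the replication-dependent median 0.0789 both with no background correction and on the authors' values, against 0.195 for each in the fit reported. The replication-dependent median was 0.300 among probes detected on every array of a group, and the H2A median was 0.143 with 1 probe per gene. With each array left out, the median of all histone probes lay between 0.0559 and 0.112, of H1 probes between -0.0069 and 0.0811, of H4 probes between -0.0134 and 0.159, and of variant probes between -0.0639 and -0.0034. Over 731 comparisons of a single probe with an alternative, 0 called values changed sign, 21 lost and 19 gained a call. The cause of these changes was not tested.

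With the replicate block on the 6 arrays of numbers 2 to 4, 0 histone probes passed (0 higher), as on the same 6 arrays without the block (0 and 0), so leaving out Dox replicate 1 was enough to lose both calls. The replication-dependent median was 0.176 with the block. Over all probes, 6 passed with the block and 18 on the same arrays without it. The 12 histone probes not above background on every array set a limit, since 9 of them give no fold or only a bound. Without these 9, chosen after seeing the data, no class or type median moved by more than the spread between arrays (replication-dependent 0.233, H2B 0.267, H4 0.0006).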
